A study of Equus asinus with 6 samples.

Results

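The 10 genes described here are the 5 lysyl oxidases (LOX, LOXL1, LOXL2, LOXL3 and LOXL4) and 5 genes of the elastic fibre (ELN, FBN1, FBLN1, FBLN5 and MFAP4). They were chosen by gene name, and all 10 were listed among the 20873 genes of the deposited count table. The RNA-seq libraries were made from a back muscle, longissimus dorsi, of donkeys (Equus asinus) of the Guangling breed at 24 months of age. Muscle of high intramuscular fat (IMF) content gave 3 libraries and muscle of low IMF content gave 3, and no treatment or allele is named for either group. The labels give neither the measured fat content nor the sex. They also do not say whether each library is a different donkey, and p-values here reflect library-to-library spread, which may be technical.

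Lysyl oxidases are copper-dependent enzymes secreted into the extracellular matrix, where they oxidise lysine side chains of collagen and elastin so that the chains become covalently cross-linked. LOX and LOXL1 are made as proenzymes, and LOXL2, LOXL3 and LOXL4 carry scavenger receptor domains ahead of the shared catalytic domain. An elastic fibre has a core of cross-linked elastin laid down on microfibrils of fibrillin, with fibulins and microfibril-associated proteins at the surface. In muscle these fibres lie in the connective tissue sheaths around fibres and bundles and in the walls of blood vessels, and fibroblasts and smooth muscle cells are known sources.

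Libraries held 39052998 to 47494157 assigned reads. The muscle markers ACTA1 and CKM were at 20875 CPM or more in every library (CPM is the read count scaled by the TMM-adjusted library total), and among tendon genes TNMD had 0 reads in 5 of 6 libraries while THBS4 was at 180.4 to 260.6 CPM and FMOD at 6.04 to 23.1 CPM. Low IMF replicates 2 and 3 resembled each other more than any other pair did. Their counts had a chi-square of 7.7 per degree of freedom over 15515 genes, against 118.4 to 559.6 for the other pairs. They differed by more than counting noise, as repeat preparations of 1 sample also could, so whether they are separate animals cannot be told. They were counted as 2 libraries, with their sum as an alternative, under which 1 rather than 3 of the 10 genes had an unadjusted p under 0.05. In high IMF replicate 3 the summed level of 12 fibroblast and fibro-adipogenic progenitor markers was 304.9 CPM, the lowest of the 6 libraries. It was 1250.4 and 1187 CPM in high IMF replicates 1 and 2 and 399.5, 788.9 and 869.2 CPM in low IMF replicates 1 to 3. Of these markers DCN and PDGFRA were detected in every library and TCF21 was at 0 in 5 of 6.

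No lysyl oxidase or elastic fibre gene passed the test between high and low IMF muscle, and 9 of the 10 had a higher fitted level in high IMF muscle. The exception was elastin itself. The median log2 fold of the 10 was 0.95 (5 lysyl oxidases 1.03, 5 elastic fibre genes 0.72), beside 0.01 over all 15933 genes tested. In edgeR's quasi-likelihood test 0 of 10 genes had an adjusted p under 0.05, where 0% of all genes did. LOXL1, LOXL3 and MFAP4 had an unadjusted p under 0.05, all 3 higher in high IMF muscle, where 4.53% of all genes were higher at that level, 2.74% lower and 7.27% either. In limma-voom 1 of 10 had an unadjusted p under 0.05, beside 6.97% of all genes. A log2 fold of at least 1 was found for 5 of 10 (LOX, LOXL1, LOXL3, FBN1 and MFAP4), beside 5.94% of all genes. A positive log2 fold was found in 51.2% of all genes. DESeq2, run as an alternative, called 0 of 10 at an adjusted p under 0.05, where it called 1.16% of genes, and 5 of 10 had an unadjusted p under 0.05, where 7.54% of genes did. The authors' deposited table also marked none of the 10, with its smallest adjusted p at 0.185 (LOXL1).

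**Figure D1:**
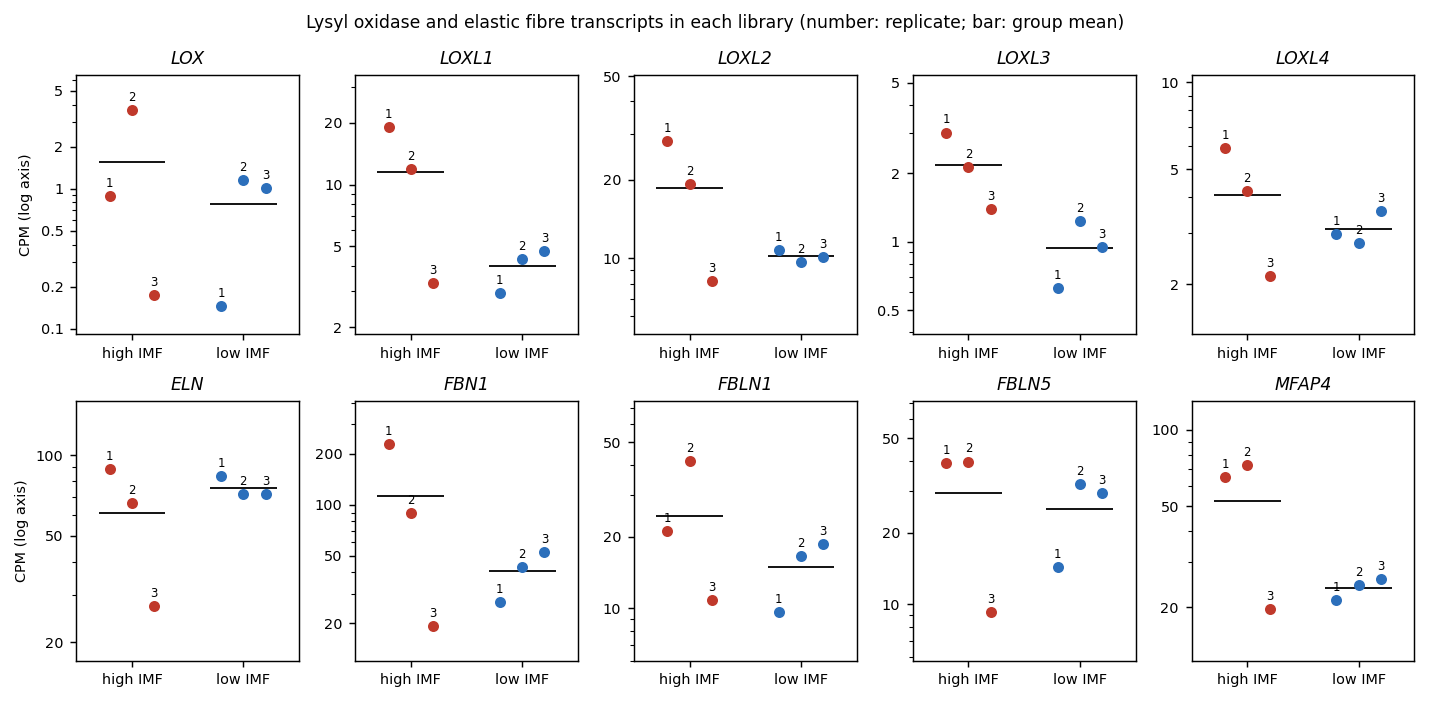
Level of each gene in the 6 libraries, in CPM on a log axis; red points are high IMF and blue points low IMF libraries, numbers are replicates and bars are group means. High IMF replicates 1 and 2 lie above every low IMF library for 8 of the 10 genes, and high IMF replicate 3 lies below every low IMF library for 6.

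The spread within the high IMF group was wide. For 8 of the 10 genes, all but LOX and ELN, high IMF replicates 1 and 2 lay above every low IMF library, as they did for 16.2% of all genes. For 6 of the 10 (LOXL2, LOXL4, ELN, FBN1, FBLN5 and MFAP4) high IMF replicate 3 lay below every low IMF library, as it did for 29.6% of all genes, and it was then the lowest of the 6 libraries, as for 21.9% of all genes. The highest library was high IMF replicate 1 or 2 for 10 of 10 (35.5% of all genes). Both features together, replicates 1 and 2 above all others and replicate 3 below all others, were found for LOXL2, LOXL4, FBN1, FBLN5 and MFAP4 (4.61% of all genes). LOXL3 alone had groups that did not overlap, higher in high IMF muscle as in 6.86% of all genes (lower in 6.1%, either in 13%). The SD of log2 CPM was larger in the high than in the low group for all 10 genes, beside 60.4% of all genes. Its median over the 10 was 1.01 in the high and 0.42 in the low group, and over all genes 0.35 and 0.27. The near-identity of low IMF replicates 2 and 3 enters the low group's value. In bulk tissue, fewer cells of a type and less RNA per cell cannot be told apart.

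LOXL1, the lysyl oxidase best known for elastic fibre upkeep, measured 19.2, 11.9 and 3.30 CPM in high IMF replicates 1 to 3. In low IMF replicates 1 to 3 it measured 2.96, 4.31 and 4.74 CPM. The first 2 high libraries stood well above the rest, and the third lay inside the low IMF range. Group means were 11.5 ± 7.94 CPM for high IMF and 4.004 ± 0.93 CPM for low IMF (SD, n = 3), a fitted 2.87-fold with a log2 fold of 1.52 ± 0.58 (SE) and an adjusted p of 0.639 in edgeR. Without high IMF replicate 1 the log2 fold was 0.93, and without high IMF replicate 3 it was 1.95.

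LOXL2, which cross-links basement membrane collagen, measured 28.2, 19.3 and 8.17 CPM with high IMF and 10.8, 9.72 and 10.1 CPM with low IMF. The low libraries were within 1.11-fold of each other, while the high libraries spanned 3.45-fold and lay on both sides of them. The log2 fold was 0.87 ± 0.40 (SE), with an adjusted p of 0.734 in edgeR. Without high IMF replicate 1 it was 0.43.

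LOXL3, another family member with scavenger receptor domains, was counted at 48 to 137 reads with high IMF and 30 to 51 reads with low IMF. It measured 3.03, 2.14 and 1.39 CPM against 0.625, 1.24 and 0.948 CPM. Every high library was above every low library, though high IMF replicate 3 exceeded low IMF replicate 2 by little. Means were 2.18 ± 0.82 and 0.936 ± 0.31 CPM (SD, n = 3), a 2.34-fold difference with a log2 fold of 1.22 ± 0.44 (SE) and the smallest adjusted p of the 10 (0.623 in edgeR). This fold was the steadiest of the family: over the omission of each library it ran from 0.91 to 1.47.

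LOXL4 measured 5.92, 4.201 and 2.14 CPM with high IMF and 2.98, 2.79 and 3.57 CPM with low IMF. The high libraries again lay on both sides of the low ones. The log2 fold was 0.39 ± 0.39 (SE; adjusted p = 0.912 in edgeR) and was 0.02 without high IMF replicate 1.

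LOX, the founding enzyme of the family, had the fewest reads and the widest range. It was counted at 40, 194 and 6 reads with high IMF and 7, 48 and 42 reads with low IMF, or 0.883, 3.64 and 0.174 CPM against 0.146, 1.16 and 1.02 CPM. A count of 0 would allow up to 3 reads, or 0.0563 to 0.0869 CPM by library, and the lowest counts of LOX were above that limit. High IMF replicate 2 was highest, and high IMF replicate 3 and low IMF replicate 1 were lowest, so the order did not follow fat group. The log2 fold of 1.03 ± 1.08 (SE; adjusted p = 0.919 in edgeR) became -0.54 without high IMF replicate 2.

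**Figure D2:**
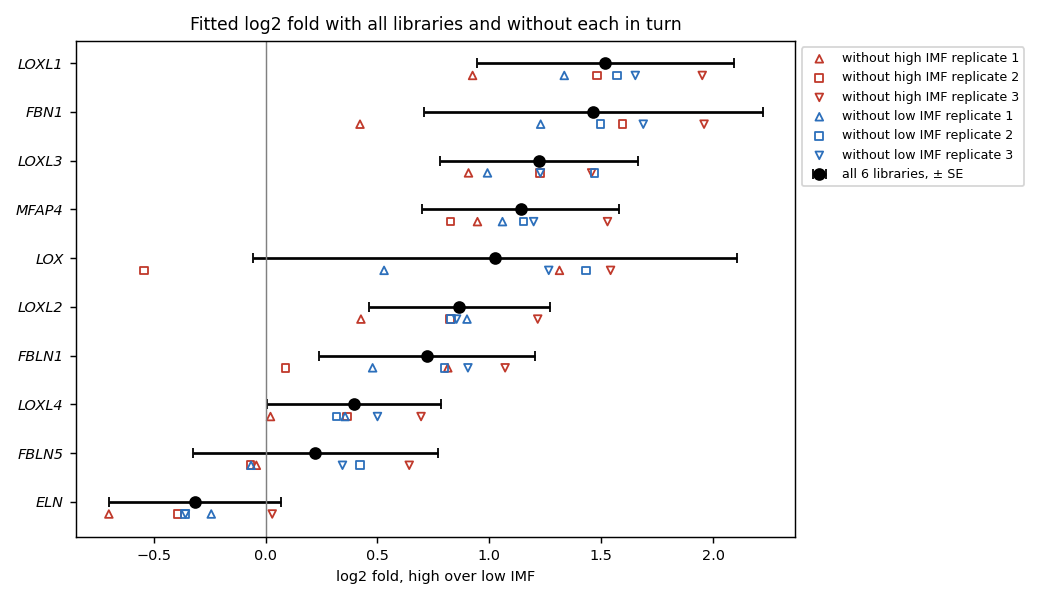
Fitted log2 fold of high over low IMF for each gene; black points with bars are all 6 libraries ± SE, open symbols leave out the library named in the legend. LOXL1, LOXL2, LOXL3, LOXL4, FBN1, FBLN1 and MFAP4 stay above 0 throughout, while LOX, FBLN5 and ELN change sign when certain single libraries are left out.

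ELN, which encodes elastin, measured 88.7, 66.2 and 27.3 CPM with high IMF and 83.8, 71.4 and 71.6 CPM with low IMF. High IMF replicate 1 was highest, high IMF replicate 3 lowest, and high IMF replicate 2 was just under the low range. Group means were 60.7 ± 31.0 and 75.6 ± 7.11 CPM (SD, n = 3), a log2 fold of -0.32 ± 0.38 (SE) with an adjusted p of 0.932 in edgeR. Without high IMF replicate 3 the log2 fold was 0.03, so the sign of this small difference rested on that library. The protein description deposited with this row is that of an uncharacterized protein of another mammal, so the row is identified by its gene name alone.

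FBN1, which encodes fibrillin-1, the main microfibril protein, spanned the largest range of the elastic fibre genes. It measured 227.9, 89.99 and 19.3 CPM with high IMF and 26.7, 42.8 and 52.7 CPM with low IMF. High IMF replicate 1 stood 11.8-fold above high IMF replicate 3, while the low libraries spanned 1.97-fold. The log2 fold was 1.46 ± 0.76 (SE; adjusted p = 0.761 in edgeR), and without high IMF replicate 1 it was 0.42. In that same library 8 macrophage markers (7 of 8 higher in sign in high IMF muscle) summed to 265.4 CPM, against 36.6 and 97.0 CPM in the other high and 49.7 to 55.4 CPM in the low IMF libraries. The macrophage markers CD68 and CD163 were detected in every library. The 8 skeletal muscle fibre markers, 0 of 8 higher in sign, had their lowest sum there (72286 CPM, against 99712 to 180098 in the other 5). The part of these cell types in the FBN1 level was not tested.

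MFAP4, a microfibril-associated glycoprotein that binds elastin, measured 65.4, 72.4 and 19.6 CPM with high IMF and 21.3, 24.4 and 25.8 CPM with low IMF. High IMF replicates 1 and 2 were well above the highest low library, and high IMF replicate 3 was just under the lowest. Means were 52.5 ± 28.7 and 23.8 ± 2.34 CPM (SD, n = 3), a 2.2-fold difference with a log2 fold of 1.14 ± 0.44 (SE; adjusted p = 0.639 in edgeR). It ran from 0.83 without high IMF replicate 2 to 1.53 without high IMF replicate 3.

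The fibulins had smaller folds. FBLN1, a fibulin of matrix fibres and basement membranes, measured 21.1, 41.6 and 10.8 CPM with high IMF and 9.58, 16.6 and 18.5 CPM with low IMF (log2 fold 0.72 ± 0.48 SE, adjusted p = 0.851 in edgeR), and without high IMF replicate 2 its log2 fold was 0.09. FBLN5, which brings elastin to microfibrils, measured 39.3, 39.9 and 9.27 CPM with high IMF and 14.4, 31.9 and 29.5 CPM with low IMF. High IMF replicate 3 and low IMF replicate 1 were the 2 low points of FBLN5, whichever their group. Its log2 fold was 0.22 ± 0.55 (SE; adjusted p = 0.966 in edgeR) and took a negative sign when high IMF replicate 1 (-0.04), high IMF replicate 2 (-0.07) or low IMF replicate 1 (-0.06) was left out.

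Levels of different genes were compared on the deposited FPKM scale, which divides by gene length. In low IMF muscle the order ran from ELN (22.3 ± 3.79 FPKM, SD, n = 3) and MFAP4 (13.3 ± 0.66) through FBLN5 (8.13 ± 2.64), FBLN1 (4.35 ± 1.15) and FBN1 (3.87 ± 1.07) to LOXL2 (2.72 ± 0.34) and LOXL1 (2.04 ± 0.36). LOX (0.427 ± 0.29), LOXL4 (0.35 ± 0.05) and LOXL3 (0.3 ± 0.08) were the 3 lowest and did not differ beyond their spread, nor did FBLN1 and FBN1. In high IMF muscle MFAP4 came first on the mean (34.1 ± 20.8 FPKM), ahead of ELN (20.6 ± 12.2) and FBN1 (12.8 ± 12.6), with spreads that overlapped. LOXL1 (6.92 ± 5.21) and LOXL2 (5.72 ± 3.56) again far exceeded LOX (1.05 ± 1.23). Counts and FPKM together imply a gene length of 8570 bases for LOXL4 and of 1678 to 3588 for the other lysyl oxidases, which lowers the FPKM of LOXL4 relative to its reads.

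**Figure D3:**
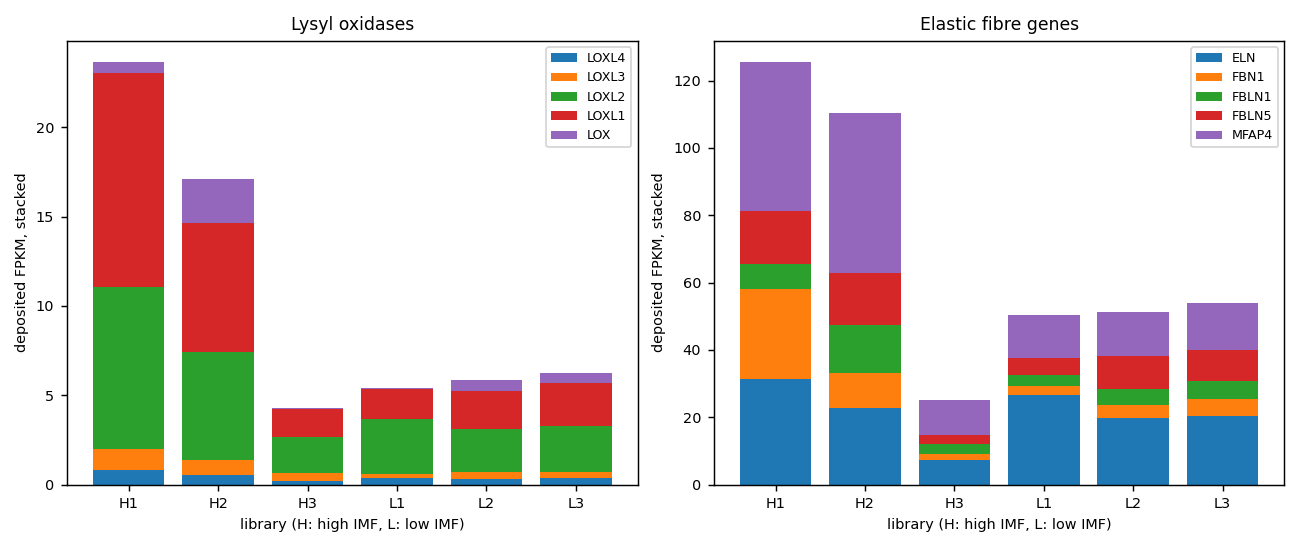
Deposited FPKM stacked by gene for the lysyl oxidases (left) and the elastic fibre genes (right) in the 6 libraries. The lysyl oxidases sum to 23.7 and 17.1 FPKM in high IMF replicates 1 and 2 and to 4.3 to 6.23 in the other 4 libraries, and the MFAP4 segment is taller than the ELN segment in all 3 high IMF libraries.

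LOXL1 and LOXL2 together made up most of the lysyl oxidase FPKM in every library. LOXL1 held 50.6%, 42.2% and 36.5% of the family's sum with high IMF and 30.4%, 35.8% and 38.0% with low IMF, with overlap between the groups. LOX held 14.3% in high IMF replicate 2 and 10.8% and 8.99% in low IMF replicates 2 and 3, but 1.66% to 2.58% in the other 3 libraries. Among the elastic fibre genes, elastin held 25.1%, 20.6% and 29.5% of the sum with high IMF and 52.7%, 38.7% and 37.7% with low IMF. MFAP4 held 35.3%, 43.1% and 40.6% against 25.5%, 25.2% and 25.98%. These are shares of a single sum, so they are not independent of each other, and the level of ELN itself overlapped between the groups.

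The level of elastin overlapped between the groups, but its ratio to MFAP4 or to LOXL1 within a library did not. ELN over MFAP4 on the FPKM scale was 0.71, 0.479 and 0.729 with high IMF and 2.06, 1.53 and 1.45 with low IMF. ELN over LOXL1 was 2.63, 3.16 and 4.7 against 16.1, 9.42 and 8.59. High IMF replicate 3, which had the lowest level of ELN, lay with its own group in both ratios. ELN over FBN1 was 1.19, 2.24 and 4.32 against 9.54, 5.09 and 4.14, with overlap. The exact two-sided permutation test gave p = 0.1 for each of the first 2 ratios, the smallest that 3 against 3 libraries allow, and 0.2 for the third. Adjusted by Benjamini-Hochberg over the 8 ratios computed, these were 0.4, 0.4 and 0.533, and the ratios were chosen with the levels known. MFAP4 and LOXL1, the denominators of the first 2, were themselves among the genes at an unadjusted p under 0.05 in edgeR. How often the ratio of any gene to MFAP4 or LOXL1 separates the groups was not computed. Smooth muscle is a source of elastin in vessel walls, and 2 of 8 smooth muscle markers were higher in sign in high IMF muscle (median log2 fold -0.63). The desmin gene DES, which skeletal muscle also expresses, made up 86.1% to 94.9% of the summed level of this list. Without DES the sum was 611, 805 and 655 CPM with high IMF against 610, 1487 and 1263 CPM with low IMF. Its defining marker MYH11 measured 41.1, 89.3 and 25.5 CPM against 85.7, 316.6 and 252.7 CPM, with overlap. The log2 fold of MYH11 was -2.07 ± 0.60 (SE), with an adjusted p of 0.523 in edgeR and 0.0191 in DESeq2. ACTA2, its second marker, measured 127.1, 176.9 and 145.6 CPM against 117.4, 311.3 and 249.97 CPM. Within the low group MYH11 was lowest in replicate 1, where ELN was highest. By pattern over the 6 libraries, ELN lay nearest to the median of the endothelial markers (root mean square difference 0.267 on the log2 scale). The tendon markers, a median of only 3 tested genes, came next (0.366), then the smooth muscle (0.676) and fibroblast markers (0.695). Of the 8 endothelial markers 1 was higher in sign (median log2 fold -0.47), and their sums were 446.4 to 856.5 CPM with high IMF and 832.8 to 962.3 CPM with low IMF. PECAM1, CLDN5 and ESAM of that list were lower in high IMF muscle without overlap, as 6.1% of all genes were, and 0 of the 8 passed in edgeR. High IMF replicate 3 was the lowest library for all 8 (21.9% of all genes), while CDH5 and KDR were highest in high IMF replicate 1. The part of smooth muscle and endothelium in these ratios was not tested.

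Each of the 10 genes was also set against the fibroblast markers of the same library, a comparison chosen after the values were seen. Of the 11 markers tested 10 were higher in sign in high IMF muscle, with a median log2 fold of 0.93, close to the 0.95 of the 10 genes. PDGFRA and DCN, the first 2 markers of that list, measured 29.4, 34.3 and 5.41 CPM and 348, 386 and 70.9 CPM in the high IMF libraries. In the low IMF libraries they measured 8.06, 25.01 and 24.7 CPM and 120, 308 and 331 CPM. Per 1000 CPM of DCN, LOXL1 was at 55.1, 30.9 and 46.6 CPM with high IMF and 24.6, 14.0 and 14.3 CPM with low IMF. LOXL1, LOXL3, FBN1 and MFAP4 were higher per DCN in high IMF muscle without overlap between groups, where 1.75% of all genes were. FBLN5 per 1000 CPM of DCN was nearly level, at 112.9, 103.4 and 130.8 CPM against 119.4, 103.6 and 89.2 CPM, although its own level spanned 4.30-fold among the high IMF libraries. The separation depended on the marker taken as denominator. Per summed fibroblast marker, LOXL1 and LOXL3 were higher without overlap (1.21% of all genes) and FBLN5 lower (1.96% of all genes), and per PDGFRA 0 of the 10 were higher (0.979% of all genes) and 0 lower (0.747%) without overlap. Per DCN 0 were lower (0.628%). By pattern over the 6 libraries, LOXL3, FBLN1, FBLN5 and MFAP4 lay nearest to the fibroblast list of all marker lists. LOXL1, LOXL2 and FBN1 lay nearest to the macrophage list (root mean square differences 0.397, 0.387 and 0.408 on the log2 scale). Their differences from the fibroblast list were 0.429, 0.452 and 0.539. LOXL4 lay nearest to the tendon list (0.242, beside 0.438 for the fibroblast list).

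**Figure D4:**
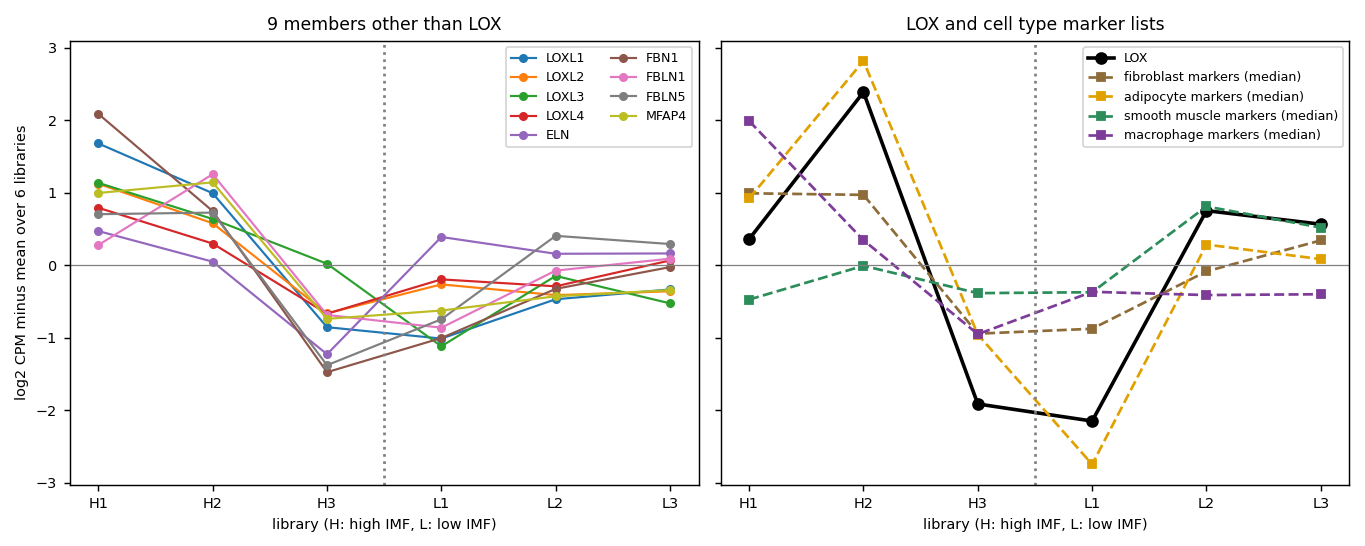
Log2 CPM centred on each gene's own mean across the 6 libraries, for the 9 members other than LOX (left) and for LOX beside the medians of 4 marker lists (right); H and L are high and low IMF libraries, and lines only join points of one gene or list. LOX and the median of the adipocyte markers are both highest in high IMF replicate 2 (H2), and both lie lowest in low IMF replicate 1 and high IMF replicate 3 (L1 and H3); single adipocyte markers such as PLIN4 and FABP4 have another order.

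LOX lay farthest from the median pattern of the set. Its root mean square difference from the median pattern of the 10 genes, over the 6 libraries on the log2 scale, was 1.1, against 0.254 (MFAP4) to 0.635 (ELN) for the others. This measure counts the size of the swings as well as their order. LOX swung most, with an SD of log2 CPM of 2.15 in the high and 1.62 in the low group. It had only 6 reads in high IMF replicate 3 and 7 in low IMF replicate 1. Among 9 marker lists the adipocyte list lay nearest to LOX (0.609), followed by the fibroblast list (0.976), whereas for each of the other 9 genes the adipocyte list was at 1.05 or more. Of the 7 adipocyte markers 5 were higher in sign, with a median log2 fold of 1.93, and 0 passed in edgeR. CIDEA had a log2 fold of 2.71 ± 0.92 (SE), with an adjusted p of 0.592 in edgeR and 0.0440 in DESeq2. PLIN4 and FABP4 were lower in sign (log2 folds -0.29 and -0.51). The list summed to 327.6 to 625.3 CPM in the high and 453.5 to 492.1 CPM in the low group. PLIN4 was the largest term of this sum in every library. The fat cell hormone gene ADIPOQ measured 30.3, 165.1 and 5.96 CPM with high IMF and 3.02, 49.7 and 36.6 CPM with low IMF. PLIN1, which encodes a coat protein of lipid droplets, was at 28.6, 107.9 and 7.53 against 1.56, 20.9 and 15.5 CPM. LOX, ADIPOQ and PLIN1 had the same highest library and the same 2 lowest ones. These were not particular to fat cell genes: FBLN1, FBLN5 and MFAP4 and the fibroblast markers PDGFRA and DCN had them too. Among the other adipocyte markers CIDEC and LEP also had them. CIDEC measured 7.53, 22.5 and 1.65 CPM against 0.563, 3.49 and 1.97 CPM, and LEP 3.25, 16.2 and 0.666 against 0, 1.21 and 1.56 CPM. CIDEA was likewise highest in high IMF replicate 2 and lowest in low IMF replicate 1. PLIN4 and FABP4 did not share this order. PLIN4 was lowest in high IMF replicate 2 (199.5 CPM) and highest in low IMF replicate 1 (345.3 CPM), and FABP4 was highest in low IMF replicate 1 (128.7 CPM). These likenesses are a description of 6 libraries, with no test, and the part of fat cells in the LOX level was not tested.

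The genes nearest to the median pattern of the 10, outside all lists used here, were TNFAIP6, FAM198A, OLFML1, IDS and NT5E, with root mean square differences of 0.0899 to 0.158 on the log2 scale over 6 libraries and among 11901 genes. TNFAIP6, a hyaluronan-binding protein, measured 4.22, 3.36 and 1.27 CPM with high IMF and 1.29, 2.08 and 2.14 CPM with low IMF. NT5E, a cell surface nucleotidase, measured 31.6, 24.4 and 8.6 against 11.5, 12.8 and 16.5 CPM.

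The other genes of microfibrils and elastic fibres had a median log2 fold of 0.31. Of 22 tested, 18 were higher and 4 lower in sign, 0 passed at an adjusted p under 0.05 in edgeR (smallest 0.678) and 1 had an unadjusted p under 0.05. That gene, ADAMTSL2, a secreted protein that binds microfibrils, measured 9.23, 13.8 and 5.94 against 3.39 to 6.48 CPM. MFAP2, a microfibril glycoprotein, measured 7.16, 4.16 and 0.956 CPM with high IMF and 1.17, 1.19 and 2.36 CPM with low IMF, again with high IMF replicates 1 and 2 highest. EFEMP1 and EMILIN2, a fibulin and an elastin microfibril interface protein, had log2 folds of 1.06 ± 0.70 and 1.03 ± 0.67 (SE).

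Genes of lysyl oxidase maturation, scaffold (POSTN and FN1) and copper supply had a median log2 fold of 0.42 (10 tested, 8 higher in sign, 0 passed). BMP1, the protease that cleaves pro-lysyl oxidase and procollagen, measured 32.6, 21.9 and 16.4 CPM with high IMF and 12.8, 13.6 and 14.9 CPM with low IMF. Its groups did not overlap, higher in high IMF muscle as in 6.86% of all genes (1.72-fold, adjusted p = 0.584 in edgeR). PCOLCE2, an enhancer of procollagen cleavage, reached 80.9 CPM in high IMF replicate 1 against 3.33 to 22.7 CPM in the others, so its log2 fold of 2.08 ± 0.99 (SE) leaned on that library. PCOLCE and the copper importer SLC31A1 had log2 folds of 0.45 and 0.39.

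Fibrillar collagens, the other substrates of these enzymes, split by chain. Of 8 tested 5 were higher in sign and 0 passed (median log2 fold 0.61). COL1A1, COL1A2 and COL3A1, the main chains of types I and III, had log2 folds of 1.42 ± 0.52, 1.28 ± 0.62 and 1.42 ± 0.71 (SE), and COL5A1 0.63 ± 0.44. The chains lower in sign were COL5A3 (-0.26 ± 0.24), COL11A2 (-0.57 ± 0.44) and COL2A1 (-1.44 ± 1.14). COL2A1 was barely detected, at 0 to 1.17 CPM. COL1A1 measured 166.1, 129.5 and 33.1 CPM with high IMF and 35.9, 38.97 and 48.0 CPM with low IMF. The first 2 high libraries stood above the rest and the third just below the low ones, as for MFAP4.

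Collagen hydroxylation and folding genes were balanced (14 tested, 8 higher in sign, median log2 fold 0.03, 0 passed). P4HA2 and SERPINH1, a prolyl hydroxylase subunit and the collagen chaperone, had log2 folds of 0.78 and 0.81, and P3H3 and P3H4 of 0.54 and 0.93. P4HA2, SERPINH1 and P3H3 were higher in high IMF muscle without overlap, as 6.86% of all genes were. P4HB (log2 fold -0.19) and COLGALT1 (-0.33) were lower without overlap, as 6.1% of all genes were. Of the elastin-degrading enzymes 7 were tested, 6 were higher in sign and 0 passed. MMP7 and MMP12, also on this list, were not listed by name among the deposited genes and could not be tested. MMP9, a gelatinase that can cut elastin, measured 0.309, 0.994 and 0.579 CPM with high IMF and 0.0417, 0.145 and 0.0729 CPM with low IMF (adjusted p = 0.517 in edgeR), and its lowest library was under the 3 reads that a count of 0 allows and another at them. MMP2 measured 151, 123 and 38.3 against 31.2, 57.9 and 67.2 CPM. CTSK and ELANE had log2 folds of 0.41 and 0.25. The elastin receptor and integrin genes were split evenly (8 tested, 4 higher in sign, median log2 fold 0.03, 0 passed). GLB1, ITGAV and ITGB1 had log2 folds of 0.27, 0.44 and 0.13 and CTSA one of -0.34. GLB1 and ITGAV were higher (6.86% of all genes) and CTSA lower (6.1% of all genes) without overlap.

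**Figure D5:**
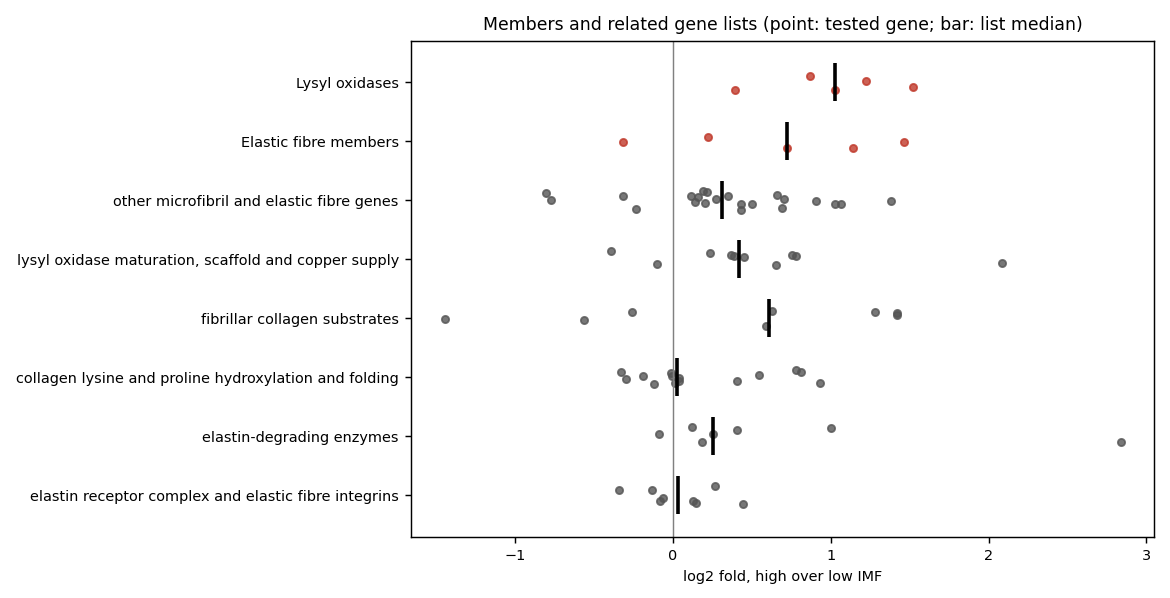
Log2 fold of high over low IMF for the tested genes of each list; each point is a gene and each bar the list's median. The lysyl oxidases (median 1.03) and the elastic fibre members (0.72) lie to the right, the hydroxylation list (0.03) and the receptor list (0.03) near 0.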

How the data were processed

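Read counts per gene, deposited by the authors as whole numbers, were tested as deposited. The labels name 2 different sequencers and no batch. The submitters' processing notes name HISAT2 and the build mm9, a mouse build; the genome aligned to, the counter and its use of strand are open, so no coordinates are printed. FPKM values are the authors' deposited ones and entered no test. The deposited fold change (ratio), the log2 of it and the p-values deposited beside it are the authors' own comparison. Per-sample files matched the series' table (0 count cells differed). Of the LOC names, 876 were matched to a symbol in a RefSeq gene table (EquAss-T2T_v2).

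Counts were fitted with edgeR 4.0.16 (quasi-likelihood F-test, TMM, filterByExpr, R 4.3.3) over 15933 genes, two-sided, with Benjamini-Hochberg adjustment over all of them and a threshold of 0.05. All 10 members passed the filter. SE is the absolute log2 fold over the square root of F. Pattern differences use log2 CPM with a prior count of 0.5. The scripts were tested on simulated data. Named genes are the 10 members, up to 4 genes of smallest p per related list, the first 2 genes of marker lists and the 5 nearest patterns among genes of at least 1 CPM. FBN2, FBN3, P4HB, COLGALT1, COL5A3, COL11A2, COL2A1 and all other named genes of the marker lists fall outside this rule and were chosen after their values were seen. MMP7 and MMP12 are named only as absent. The members and lists were chosen with earlier results of these data known.

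Alternatives were DESeq2 1.42.0 (Wald test, and its size factors in edgeR), limma-voom (limma 3.58.1), library size only, no filter, a filter raised to a mean of 1 CPM with 10 reads in 3 libraries, the replicate number as a block, low IMF replicates 2 and 3 summed, and each library left out. Other marker lists had a summed level, in high IMF replicates 1 to 3 and low IMF replicates 1 to 3, of 271.2, 251.4, 223.9, 202.3, 195 and 202.8 CPM (tendon) and 19.1, 11.5, 9.76, 12.1, 3.61 and 2.48 (lymphocyte). The values of 1 further marker list are not reported here. PECAM1, CDH5, CD68, CD163, CD3D and CD3E, the first 2 genes of the endothelial, macrophage and lymphocyte lists, did not pass in edgeR.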

Additional observations from a re-analysis of the deposited data

How the results depend on the processing

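In 14 alternatives 0 of the 10 genes passed an adjusted p of 0.05, and of 140 values of a gene under an alternative 135 kept their sign. The 5 that did not were LOX (-0.54) and FBLN5 (-0.066) without high IMF replicate 2, FBLN5 without high IMF replicate 1 (-0.04) and without low IMF replicate 1 (-0.06), and ELN without high IMF replicate 3 (0.030); the cause was not tested. The number of genes with a positive log2 fold was 7 to 10 over the omission of each library and 9 in the other settings. The median log2 fold was 0.59 to 1.34 over the omissions and 0.74 to 1.18 otherwise. Over the omissions LOX ran from -0.54 to 1.54, ELN from -0.70 to 0.030 and FBLN5 from -0.066 to 0.64. Scaling by library size alone shifted the all-gene median from 0.01 to 0.15, and the 10 genes then had a median of 1.18. The 3 genes at an unadjusted p under 0.05 became 5 in DESeq2, 1 in limma-voom, 1 with low IMF replicates 2 and 3 summed, and 0 to 7 over the omissions (0 without high IMF replicate 1, high IMF replicate 2, low IMF replicate 1 or low IMF replicate 3, 1 without low IMF replicate 2, 7 without high IMF replicate 3). Over all genes, edgeR called 0 higher and 0 lower. DESeq2 called 114 higher and 80 lower, and edgeR called 0 higher and 0 to 3 lower over the omissions. Genes at an unadjusted p under 0.05 numbered 1158, 700 with low IMF replicates 2 and 3 summed and 710 to 2045 over the omissions.

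With the replicate number as a block, 0 of the 10 genes had an unadjusted p under 0.05 in place of 3, and 1187 genes did in place of 1158. Same-numbered libraries of the 2 groups deviated from their group means with correlations of 0.19, 0.14 and 0.01, and high IMF replicate 2 correlated best with low IMF replicate 3 (0.20), so the numbers were not taken to pair the libraries. Depth limits LOX, which had 6 and 7 reads in its lowest libraries.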

Other observations

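FBN1 and FBN2, a pair of fibrillin genes chosen after the values were seen, ran in nearly opposite order over the libraries. FBN2, the fibrillin mostly known from development, was counted at 30, 85 and 212 reads in high IMF replicates 1 to 3 and at 196, 54 and 89 reads in low IMF replicates 1 to 3. FBN1 was counted at 10318, 4799 and 666 reads and at 1283, 1765 and 2167 reads in the same libraries. There were thus 343.9, 56.5 and 3.14 reads of FBN1 for each of FBN2 with high IMF and 6.55, 32.7 and 24.3 with low IMF. FBN2 was highest in high IMF replicate 3, where FBN1 was lowest, and lowest in high IMF replicate 1, where FBN1 was highest. The third fibrillin gene, FBN3, did not share the order of FBN2: it was counted at 48, 13 and 0 reads with high IMF and 41, 26 and 32 reads with low IMF, highest where FBN1 was highest and at 0 where FBN1 was lowest (a count of 0 allows up to 3 reads). Between fat groups FBN2 had a log2 fold of 0.14 ± 0.80 (SE) with an adjusted p of 0.985 in edgeR.

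The fibroblast markers themselves were not uniform, again as seen after the values were known. CD248, a stromal surface protein, measured 32.7, 21.8 and 14.4 CPM with high IMF and 9.46, 9.40 and 10.4 CPM with low IMF. Its groups did not overlap, higher in high IMF muscle as in 6.86% of all genes (log2 fold 1.24 ± 0.29 SE, adjusted p = 0.51 in edgeR and 0.0299 in DESeq2). Its high IMF replicate 3 stayed above the low libraries, as that of LOXL3 did. Of the other tested markers THY1, COL6A3, PI16, DPP4, FAP and LUM had log2 folds of 1.17, 1.07, 1.04, 0.94, 0.93 and 0.69. PDGFRA, DPT, DCN and CD34 had log2 folds of 0.26, 0.18, 0.08 and -0.22. The median of the list was 0.93, beside 0.95 for the 10 genes of the report.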
